A study of Arabidopsis thaliana with 12 samples.

Results

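The genes described here are those of the large plant transcription factor families bZIP, MYB, WRKY, NAC and bHLH that could be recognised by their symbol on the array. A probe set was taken when it was paired with exactly 1 gene and when that gene's symbol, apart from case and a leading AT, was BZIP, MYB, WRKY, NAC, ANAC or BHLH followed by a number. The rule found 31 probe sets for 31 loci among the 28583 rows of the value table, of which 16746 were paired with 1 gene. There were 17 bZIP genes, 7 WRKY genes, 6 bHLH genes, 1 NAC gene (NAC014) and 0 MYB genes. In RefSeq's annotation of TAIR10.1, 307 loci bear such symbols, namely 30 bZIP, 67 WRKY, 13 bHLH, 81 NAC and 116 MYB, so the members are mostly bZIP factors and most WRKY, NAC and MYB genes were not analysed here. A further 11 probe sets of 1 gene carried such a name only as a synonym and 3 WRKY probe sets were shared by several genes. Both kinds lie outside the rule.

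Whole wild-type Arabidopsis thaliana seedlings of the Col-0 ecotype were labelled as 7 days old, while the design text speaks of 6 or 7 days on plates. They were moved to liquid medium, 10 to a tube, shaken for 24 h and treated. The 4 groups were 1 µM indole-3-acetic acid (IAA) dissolved in DMSO for 15 min, mock with 0.1% DMSO for 15 min, the same IAA for 3 h, and the same mock for 3 h, each with 3 arrays numbered 1 to 3 from an experiment repeated on 3 different days. The protocol text of the labels names times that do not include 15 min, and the times used are those of the titles and characteristics. Each sample pools the seedlings of whole plants, so a smaller share of a cell type and less transcript per cell cannot be told apart.

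Auxin acts through receptors that tag the Aux/IAA repressors for destruction, which frees the auxin response factors to switch genes on within minutes. The families examined here are for the most part not core parts of that pathway. They read other signals: bZIP factors bind DNA as pairs held by a leucine zipper and act in energy, zinc and protein-folding stress, WRKY factors bind W-box elements in immunity, senescence and phosphate supply, and most of the bHLH factors measured here act in iron supply. 

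Known auxin genes set the scale. After 15 min of IAA, GH3.1, GH3.3, HAT2 and IAA29 had log2 changes between 1.00 and 1.99, with 0 of the 4 called. With the replicate number as a block 2 of them were called at 15 min, GH3.1 (limma adjusted p 0.0024) and HAT2 (adjusted p 0.0232). After 3 h GH3.1 rose by 3.51 (limma adjusted p 3.23e-05), GH3.3 by 3.64 (adjusted p 0.00227) and IAA29 by 2.73 (adjusted p 0.00081), while HAT2 was not called without the block (adjusted p 0.123) and was called with it (adjusted p 0.0169). Of the markers listed for shoot and root, 3 were measured. RCA of leaves lay between 10.4 and 10.7 and PYK10 of roots between 10.9 and 11.5 over the 12 arrays, and the root-hair gene EXPA7 lay between 3.70 and 4.60, so both organs were represented. Array medians lay between 4.72 and 4.79. The arrays numbered 1 stood apart: their interquartile ranges were 3.46 and 3.53 for IAA and mock at 15 min and 2.88 and 3.79 for IAA and mock at 3 h, against 3.89 to 3.92 on the 8 other arrays. For array 1 of IAA 3 h, the median of its correlations over rows with the remaining arrays was 0.94. Values without the 4 arrays numbered 1 are given below for part of the members and comparisons. A small change given without such a value may also have turned in sign.

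None of the 31 factors passed the test after IAA at either time. BZIP34 came closest, with the same direction of change at both times and no overlap between IAA and mock. Its close relative BZIP61 had smaller mean changes in the same direction, and its array 1 difference at 15 min was -0.14. The unadjusted limma p of BZIP61 was 0.27 at 15 min and 0.25 at 3 h. At 3 h bZIP19 (0.019) and WRKY29 (0.028), both lower with IAA, had smaller unadjusted limma p than BZIP61. Changes of the other members stayed below 1 on the log2 scale in every comparison, and several of the larger ones rested on the arrays numbered 1.

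The deposited levels of the members, on the log2 scale of RMA (a method that corrects background, equalises arrays and combines probes into 1 value), had means over 12 arrays from 1.83 for bZIP70 to 8.21 for bHLH121. Levels of different probe sets depend on their probes and give no order of abundance. Against each array's own 25th percentile, 23 members lay above it on all 12 arrays and 5 lay below it on all 12, namely bZIP43, bZIP48, bZIP70, bZIP75 and BHLH92. Another 3, bZIP42, BHLH101 and WRKY41, lay below it on 2, 5 and 1 arrays. The 4 dim bZIP genes all belong to the group S of small bZIP proteins. The range over the 12 arrays was 0.90 for the median member and fell to 0.47 when only the 8 arrays numbered 2 and 3 were used.

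**Figure D1:**
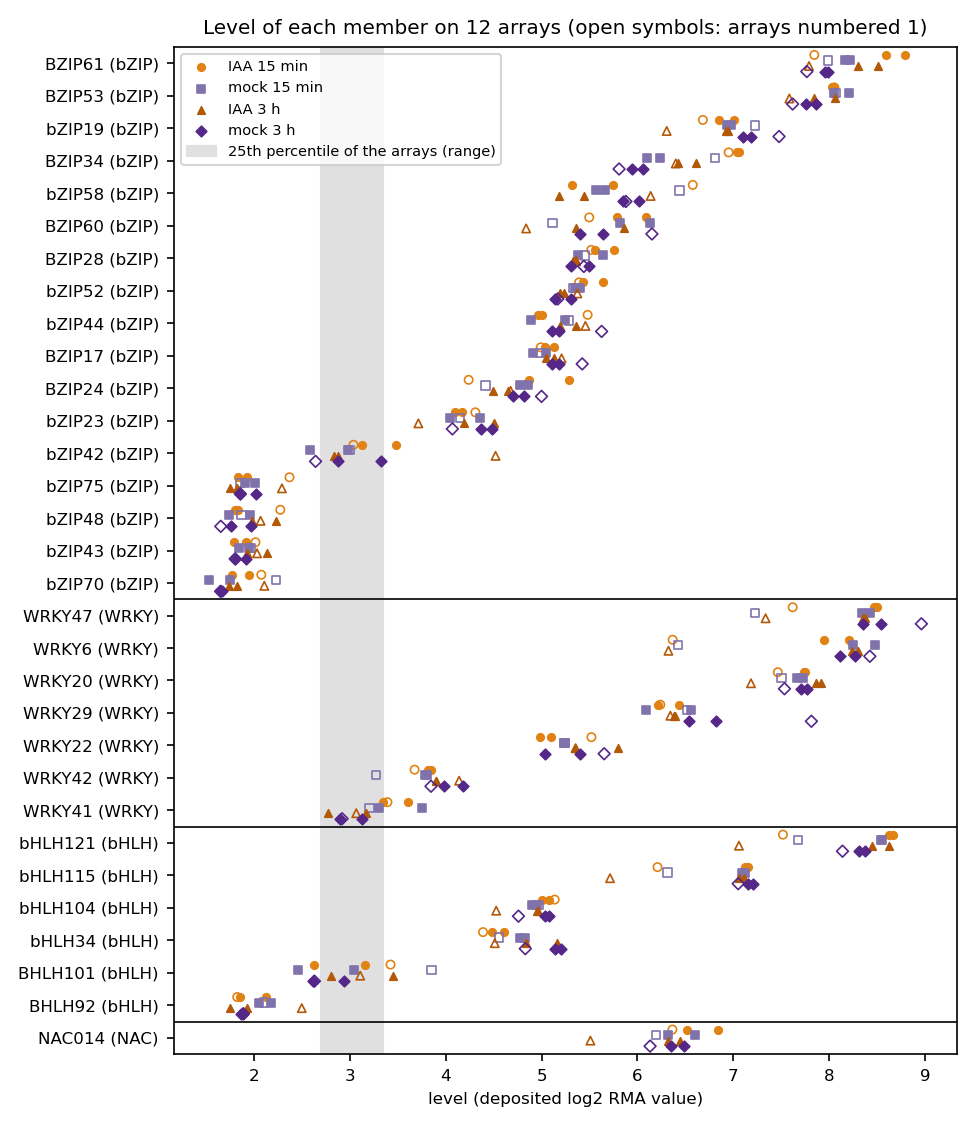
Deposited log2 level (x axis) of each of the 31 members (y axis, by family and mean level) on the 12 arrays, with colours and shapes for the 4 groups, open symbols for the arrays numbered 1, and a grey band from the lowest to the highest 25th percentile of the arrays. 5 members lie left of the band on every array, and for WRKY6, WRKY47, bHLH115 and bHLH121 the open symbols of 3 groups lie apart from all other symbols.

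The arrays numbered 1, which differed over all rows, also stood apart in the bright members WRKY6, WRKY47, bHLH115 and bHLH121. Other bright members showed less of this, to differing degrees. For BZIP61 array 1 differed from the mean of the group's other arrays by -0.84 in IAA 15 min and -0.61 in IAA 3 h. In mock it differed by -0.21 at both times. For BZIP53 the gaps of array 1 to the mean of the group's other arrays were 0.02 in IAA 15 min and -0.06 in mock 15 min. At 3 h they were -0.37 with IAA and -0.19 in mock. WRKY6, a regulator of senescence and of phosphate transport, had levels of 6.37, 8.20 and 7.95 on IAA arrays 1 to 3 at 15 min and 6.42, 8.24 and 8.47 on mock arrays at 15 min. At 3 h it had 6.32, 8.24 and 8.30 with IAA and 8.42, 8.11 and 8.27 in mock. The arrays numbered 1 were thus the low ones in 3 groups, with gaps to the mean of the group's other arrays of -1.71 in IAA 15 min, -1.94 in mock 15 min and -1.95 in IAA 3 h, while the gap in mock 3 h was 0.23. WRKY47, a relative of WRKY6, showed gaps of -0.87, -1.16 and -1.03 in IAA 15 min, mock 15 min and IAA 3 h, and 0.52 in mock 3 h. For bHLH115 the gaps were -0.93, -0.79 and -1.37 in those 3 groups and -0.13 in mock 3 h. For bHLH121 they were -1.13, -0.88 and -1.47, and -0.20 in mock 3 h.

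The gap was over 1 in size for 3 members in IAA 15 min, 3 in mock 15 min, 5 in IAA 3 h and 1 in mock 3 h. Among all 17504 named rows such gaps were reached by 5.74%, 4.95%, 19.4% and 1.15% in these groups, beside the members' shares of 9.68%, 9.68%, 16.1% and 3.23%. BHLH101 (1.10 in mock 15 min), bZIP58 (1.04 in IAA 15 min), bZIP42 (1.66 in IAA 3 h) and WRKY29 (1.14 in mock 3 h) differed in the opposite sense, with array 1 the high one. For WRKY6, WRKY47, bHLH115 and bHLH121 the low arrays comprised both IAA and mock at 15 min but only IAA at 3 h. They thus entered the 3 h comparison with 1 low IAA array and no low mock array. The part of these arrays' lower spread in the members' gaps was not tested.

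**Figure D2:**
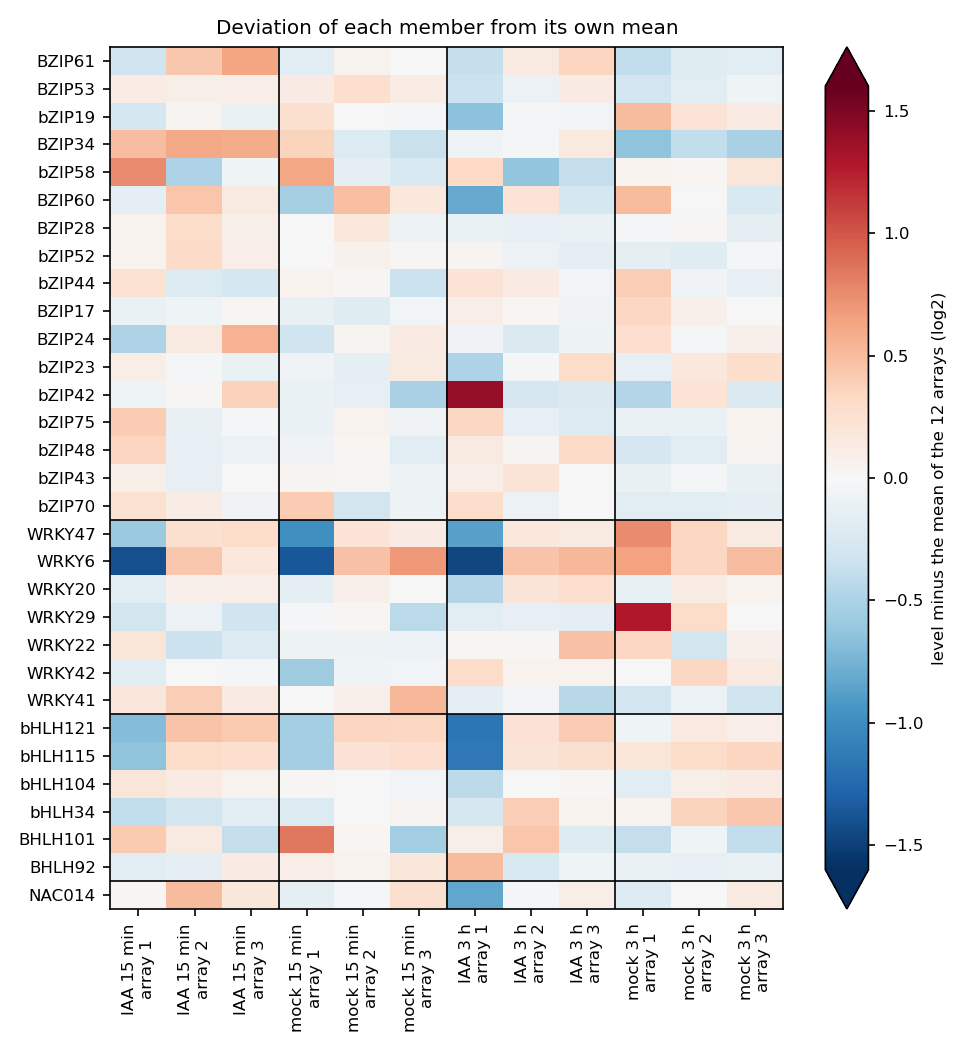
Level minus the member's own mean of the 12 arrays (colour, log2) for each member (rows) on each array (columns, by group), red above and blue below the mean. WRKY6, WRKY47, bHLH121 and bHLH115 are deep blue on array 1 of IAA 15 min, mock 15 min and IAA 3 h but not of mock 3 h, and BZIP34 is red in IAA 15 min and blue in mock 3 h.

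The first comparison asks which of these factors had changed within 15 min of IAA. By limma with Benjamini-Hochberg adjustment over 17504 rows, 0 of the 31 members were called at an adjusted p under 0.05, against a background of 0% of rows called. With the replicate number as a block 0 members were called as well, against 0.0229% of rows. At an unadjusted p under 0.05, 1 member was found, BZIP34, against a background of 0.634%. There were 4 without the arrays numbered 1, BZIP34, BZIP61, bZIP42 and WRKY6 (12.9% of the members), against a background of 4.94%. The members' changes ran from -0.23 to 0.64 with a median of 0.03, against a median of 0.00 for all rows. They were positive in 20 members and negative in 11, while all rows were positive in 50.1%. For 27 of the 31 the 95% interval of the change lay within 1 log2 unit on either side of 0.

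BZIP34 (AT2G42380), known for its part in pollen development, had levels of 6.95, 7.06 and 7.04 in IAA arrays 1 to 3 at 15 min, against 6.81, 6.24 and 6.10 in mock arrays at 15 min. All IAA levels lay above all mock levels, with the mock array numbered 1 the nearest. The fold was 1.55 (log2 change 0.64, SE 0.18, 95% interval 0.25 to 1.03; limma adjusted p 1.00), the unadjusted limma p was 0.00417, and the same-numbered differences were 0.14, 0.83 and 0.94. Without the 4 arrays numbered 1 the change was 0.88 (SE 0.10) with an adjusted p of 0.0351, so the call at 15 min depends on the arrays used. In that setting 0.0628% of all rows were called. Without the arrays numbered 2, 0 members, BZIP34 included, had an unadjusted limma p under 0.05 at 15 min, against 50 of 17504 rows. The count was also 0 without those numbered 3, against 40 rows. Over 23 alternatives the change ran from 0.48 to 0.88, always positive, and the adjusted p from 0.00104 to 1.00.

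BZIP61 (AT3G58120), the close relative of BZIP34, had levels of 7.84, 8.59 and 8.78 with IAA at 15 min, against 7.99, 8.22 and 8.17 in mock. The groups overlapped, since IAA array 1 was the lowest of the 6, while arrays 2 and 3 of IAA lay above all mock arrays. The change was 0.28 (SE 0.24, adjusted p 1.00) and 0.49 (SE 0.11, adjusted p 0.481) without the arrays numbered 1.

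Groups did not overlap in 3 members at 15 min, all higher with IAA, against a background of 2.11% of rows higher and 1.87% lower. Besides BZIP34 these were bZIP42, of the small S-group bZIP proteins, and bHLH104, one of the factors that switch on the iron-deficiency response. bZIP42 had levels of 3.04, 3.13 and 3.48 with IAA, against 3.00, 2.98 and 2.59 in mock (change 0.36, SE 0.38, and 0.52, SE 0.19, without the arrays numbered 1). bHLH104 averaged 5.07 ± 0.07 with IAA and 4.94 ± 0.04 in mock (SD, n = 3 each). Its change of 0.13 (SE 0.15, adjusted p 1.00) was small and within the error of the fit.

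By family, the 17 bZIP genes had a median change of 0.10 at 15 min, with 13 positive and 4 negative, and without the arrays numbered 1 the median was -0.02, with 8 positive and 9 negative. The 7 WRKY genes had a median of 0.02 and the 6 bHLH genes one of -0.03. NAC014 had a change of 0.21 (SE 0.24). The WRKY and bHLH medians were 0.00 and 0.06 without the arrays numbered 1. In the fit to all arrays no WRKY, bHLH or NAC gene reached an unadjusted p under 0.05, while WRKY6 did without the arrays numbered 1 (change -0.28, SE 0.12, limma adjusted p 0.998), and bHLH34 (-0.24, SE 0.10, adjusted p 0.673) and NAC014 (0.26, SE 0.12, adjusted p 0.683) did with array weights.

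**Figure D3:**
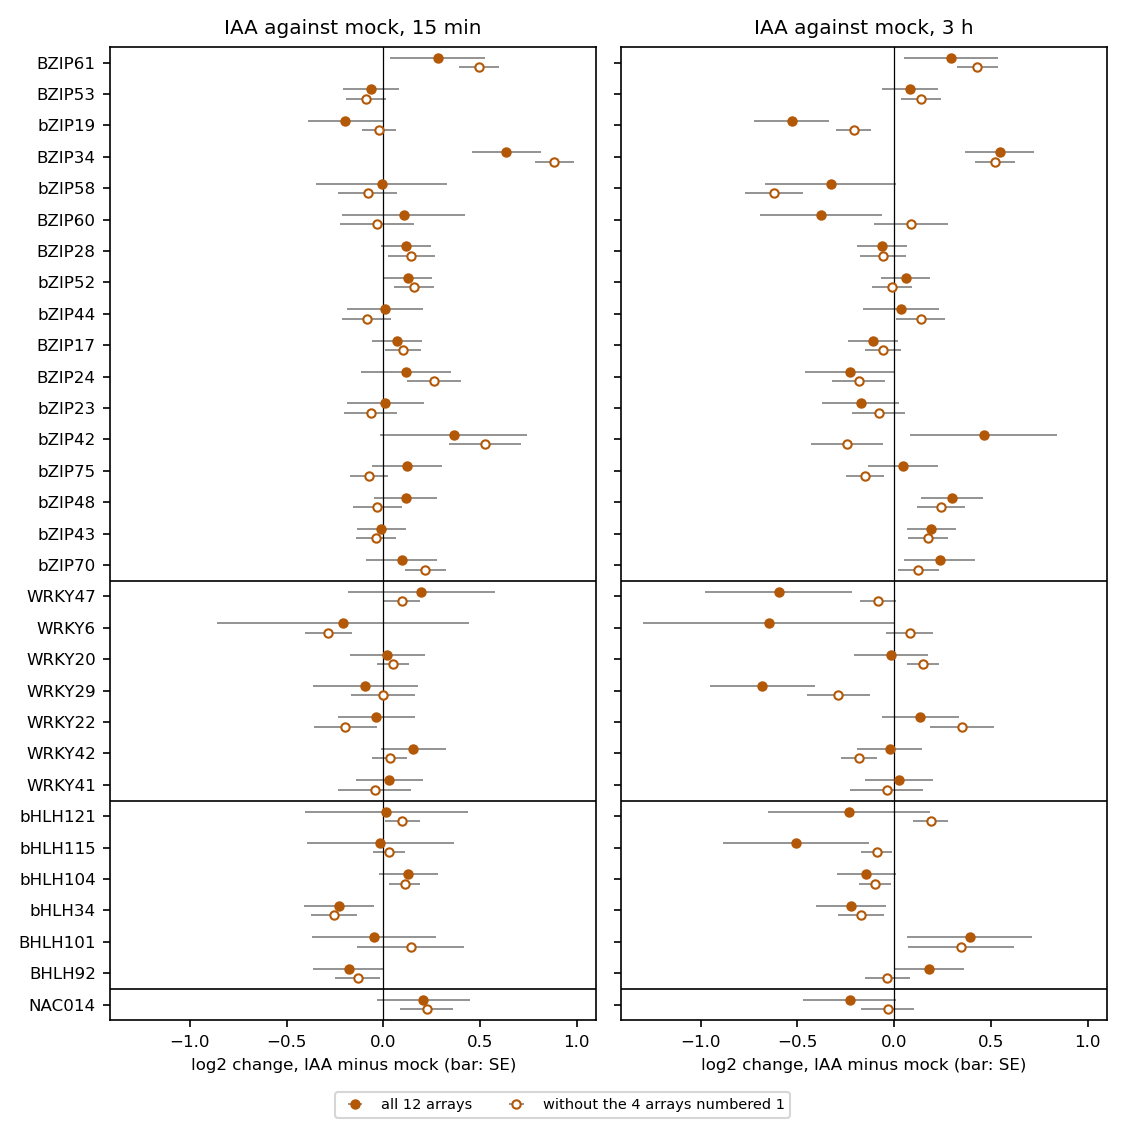
Log2 change of each member, IAA minus mock (x axis, bar: SE), at 15 min (left) and 3 h (right), from all 12 arrays (filled) and without the 4 arrays numbered 1 (open). BZIP34 lies right of 0 in both panels and both settings, while the negative 3 h changes of WRKY6, WRKY47 and bHLH115 move close to 0 without the arrays numbered 1.

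After 3 h of IAA the question is whether a slower or indirect response had reached these regulators. Again 0 of the 31 members were called by limma, against a background of 0.24% of rows. With the replicate block the members' count was 0 against 0.514% of rows, and without the arrays numbered 1 it was 0 against 0.931%. An unadjusted p under 0.05 was reached by 3 members, BZIP34, bZIP19 and WRKY29, which is 9.68% of them, against a background of 4.86%. It was reached by 4 without the arrays numbered 1, BZIP34, BZIP61, bZIP19 and bZIP58, against a background of 10.1%. The members' changes ran from -0.68 to 0.54 with a median of -0.02, against 0.06 for all rows. Of the members 14 were positive and 17 negative, and of all rows 59.4% were positive. For 22 members the 95% interval lay within 1 log2 unit on either side of 0, and for all 31 when the arrays numbered 1 were left out.

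BZIP34 was at 6.40, 6.42 and 6.62 with IAA at 3 h, against 5.81, 6.05 and 5.94 in mock. All 3 IAA arrays lay above the mock arrays, and here array 1 followed the others. The fold was 1.46 (log2 change 0.54, SE 0.18, 95% interval 0.15 to 0.94; limma adjusted p 0.632), with same-numbered differences of 0.59, 0.37 and 0.68. Without the arrays numbered 1 the change was 0.52 (SE 0.10, adjusted p 0.0665), and over 23 alternatives it ran from 0.48 to 0.63 with adjusted p from 0.00766 to 0.892.

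BZIP61 had levels of 7.79, 8.30 and 8.51 with IAA at 3 h, against 7.77, 7.96 and 7.99 in mock. Arrays 2 and 3 of IAA were the highest, and array 1 was close to its mock partner, with same-numbered differences of 0.02, 0.34 and 0.52. The change was 0.29 (SE 0.24, adjusted p 0.78), and 0.43 (SE 0.11, adjusted p 0.144) without the arrays numbered 1. When limma's array weights were used, which gave the IAA 3 h array numbered 1 a weight of 0.0667, the adjusted p was 0.0413 for BZIP61 and 0.00766 for BZIP34 at 3 h. With these weights 3.12% of all rows were called at 3 h and 0.24% at 15 min.

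bZIP19 (AT4G35040), which together with bZIP23 switches on genes of zinc uptake when zinc is short, had levels of 6.30, 6.95 and 6.92 with IAA at 3 h, against 7.48, 7.18 and 7.10 in mock. The IAA arrays all lay below the mock arrays, most of all array 1. The change was -0.53 (SE 0.19, adjusted p 0.78) and -0.21 (SE 0.09, adjusted p 0.473) without the arrays numbered 1. Its partner bZIP23 had levels of 3.72, 4.19 and 4.50 with IAA and 4.07, 4.37 and 4.48 in mock, which overlapped (change -0.17, SE 0.20, and -0.08, SE 0.14, without the arrays numbered 1).

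WRKY29 (AT4G23550), which acts with WRKY22 in the immune response to bacterial flagellin, had levels of 6.34, 6.39 and 6.38 with IAA at 3 h, against 7.81, 6.81 and 6.53 in mock. The groups did not overlap. The IAA arrays averaged 6.37 ± 0.03 and the mock arrays 7.05 ± 0.67 (SD, n = 3 each), with mock array 1 the high one. The change was -0.68 (SE 0.27, adjusted p 0.78), and -0.29 (SE 0.16, adjusted p 0.654) without the arrays numbered 1. WRKY22 had 5.35, 5.35 and 5.79 with IAA and 5.65, 5.04 and 5.40 in mock, which overlapped, with a change of 0.13 (SE 0.20). The change of WRKY22 was 0.35 (SE 0.16, adjusted p 0.545) without the arrays numbered 1, and with array weights it was 0.43 (SE 0.14, adjusted p 0.157).

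WRKY6 and WRKY47 had 3 h changes of -0.65 (SE 0.65) and -0.60 (SE 0.38) from all arrays. Both rested on the arrays numbered 1, since without them the changes were 0.08 (SE 0.12) and -0.08 (SE 0.09). For WRKY6 the change was 0.00 (SE 0.60) when only array 1 of IAA 3 h was left out. WRKY42, which with WRKY6 limits the transcription of the phosphate exporter gene PHO1, had a change of -0.02 (SE 0.17), WRKY20 one of -0.02 (SE 0.19) and WRKY41, a factor of seed dormancy, one of 0.02 (SE 0.17). Without the arrays numbered 1 these were -0.18 (SE 0.09) for WRKY42, 0.15 (SE 0.08) for WRKY20 and -0.04 (SE 0.19) for WRKY41, so the last pair turned in sign.

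**Figure D4:**
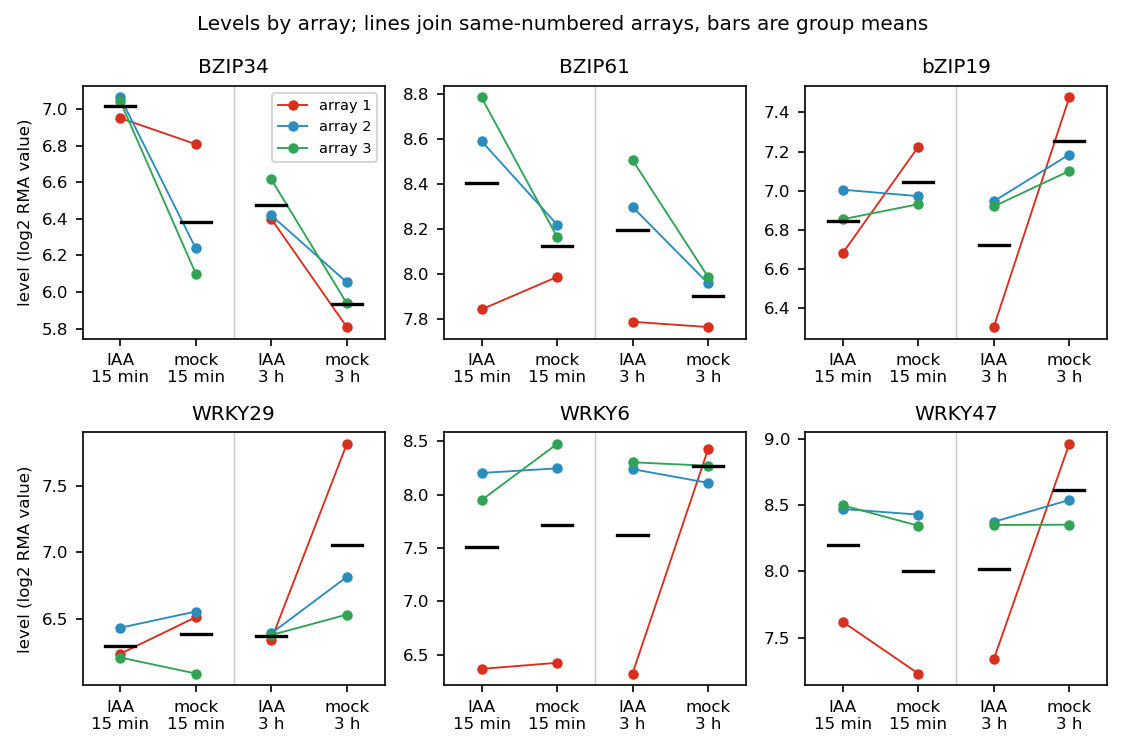
Log2 level (y axis) of BZIP34, BZIP61, bZIP19, WRKY29, WRKY6 and WRKY47 in the 4 groups (x axis), with lines joining same-numbered arrays of IAA and mock and black bars at the group means. For BZIP34 all 6 lines are higher at the IAA end, whereas the 3 h differences of WRKY6 and WRKY47 rest on array 1.

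The iron-related bHLH genes were measured in 4 of the 10 members of a list of iron-deficiency factors, with 0 called in either direction at 15 min or 3 h. bHLH34, bHLH104 and bHLH115 activate the genes of the iron-deficiency response, among them BHLH101, whose product works with the master regulator FIT in root iron uptake. bHLH115 had levels of 5.71, 7.06 and 7.11 with IAA at 3 h, against 7.05, 7.15 and 7.21 in mock, a change of -0.51 (SE 0.38) that was -0.09 (SE 0.08) without the arrays numbered 1. bHLH34 had 4.51, 5.17 and 4.83 with IAA, against 4.83, 5.14 and 5.21 in mock (change -0.22, SE 0.18). bHLH104 had a change of -0.14 (SE 0.15), and the dim BHLH101 one of 0.39 (SE 0.32) with overlapping groups. bHLH121, which also acts above the iron-uptake genes, had a change of -0.23 (SE 0.42), and one of 0.19 (SE 0.09) without the arrays numbered 1. BHLH92, a dim stress-related gene, had levels of 2.50, 1.75 and 1.93 with IAA at 3 h, against 1.89, 1.87 and 1.89 in mock, with IAA array 1 the high one. Its change was 0.18 (SE 0.18), and -0.04 (SE 0.12) without the arrays numbered 1.

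Among the remaining bZIP genes, 3 are regulators of the unfolded protein response, the programme that cells start when proteins misfold in the endoplasmic reticulum. BZIP60, whose messenger is spliced by the stress sensor IRE1, had 4.84, 5.86 and 5.36 with IAA at 3 h, against 6.15, 5.65 and 5.40 in mock (change -0.38, SE 0.32). Without the arrays numbered 1 its change was 0.09 (SE 0.19). BZIP17 and BZIP28, which are held in the membrane until released by stress, had the small changes -0.11 (SE 0.13) and -0.07 (SE 0.13). BZIP24, a factor linked to salt stress, averaged 4.61 ± 0.10 with IAA at 3 h and 4.84 ± 0.15 in mock (SD, n = 3 each), without overlap (change -0.23, SE 0.23).

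bZIP44 and BZIP53 belong to the S1 group of bZIP factors, which pair with C-group factors in the response to low energy. They were the measured part of a list of 9 such genes, and 0 were called at either time. Their 3 h changes were 0.04 (SE 0.20) and 0.08 (SE 0.15), and both were 0.14 without the arrays numbered 1. bZIP44 was also the 1 measured member of a list of 16 factors linked to auxin response or lateral roots, and its 15 min change was 0.01 (SE 0.20), or -0.09 (SE 0.13) without the arrays numbered 1. The WRKY list of defence and senescence had 3 of 17 members measured, WRKY6, WRKY22 and WRKY29, with 0 called and a median 3 h change of -0.65, which rests on the arrays described above. The other 5 lists had 0 measured members.

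Groups did not overlap at 3 h in 4 members that were higher with IAA, against a background of 6.56%, and in 3 that were lower, against 4.65%. The higher ones were BZIP34 and the dim bZIP43, bZIP48 and bZIP70, and the lower ones were bZIP19, BZIP24 and WRKY29. The changes of the 3 dim genes were 0.19 (SE 0.12), 0.30 (SE 0.16) and 0.24 (SE 0.18). With quantile normalization between arrays they were 0.07, 0.18 and 0.11, and without the arrays numbered 1 they were 0.17, 0.24 and 0.13. bZIP42 had a change of 0.46 (SE 0.38) with IAA array 1 at 4.52, against 2.84 and 2.88 on IAA arrays 2 and 3 and 2.64, 3.32 and 2.88 in mock. Without the arrays numbered 1 its change was -0.24 (SE 0.19).

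Family medians at 3 h were 0.04 for bZIP, with 10 positive and 7 negative, -0.02 for WRKY, with 2 positive and 5 negative, and -0.18 for bHLH, with 2 positive and 4 negative. The WRKY median was -0.04 and the bHLH median -0.06 without the arrays numbered 1. NAC014 had levels of 5.51, 6.32 and 6.44 with IAA, against 6.13, 6.35 and 6.48 in mock, a change of -0.23 (SE 0.24) that was -0.03 (SE 0.14) without the arrays numbered 1. The bZIP median was -0.01 without those arrays and 0.07 with quantile normalization, so its sign depends on the arrays used. The other bZIP genes bZIP52 and bZIP75 had changes of 0.06 (SE 0.13) and 0.04 (SE 0.18), and of -0.01 and -0.15 without the arrays numbered 1. bZIP58 had a change of -0.33 (SE 0.34), and one of -0.62 (SE 0.15, adjusted p 0.14) without the arrays numbered 1.

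Whether the IAA response itself differed between 3 h and 15 min was tested by an interaction term. Here 0 members were called, against a background of 0.0114%, and 0 members had an unadjusted p under 0.05, against 1.9% of rows. Without the arrays numbered 1 an unadjusted p under 0.05 was reached by 4 members, BZIP34, bZIP42, bZIP58 and WRKY22, against a background of 6.88%. The count of called members was also 0 with the replicate block (0.0171% of rows), with array weights (0.726%) and without the arrays numbered 1 (0.12%). BZIP34 had a difference of -0.09 (SE 0.25, 95% interval -0.65 to 0.46), and without the arrays numbered 1 it had -0.36 (SE 0.14, adjusted p 0.684). BZIP61 had a difference of 0.01 (SE 0.35, interval -0.74 to 0.77). In the fit to all arrays the largest differences in size were those of WRKY47 (-0.79, SE 0.54) and WRKY29 (-0.59, SE 0.38), which were -0.18 (SE 0.13) and -0.29 (SE 0.23) without the arrays numbered 1. In that setting the largest in size was bZIP42, at -0.77 (SE 0.26, adjusted p 0.601) against 0.10 (SE 0.54) from all arrays, followed by WRKY22 at 0.55 (SE 0.23, adjusted p 0.712) against 0.17 (SE 0.28).

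Mock seedlings at 3 h against mock seedlings at 15 min give the change with time in the tube without IAA. By limma 0 members were called, against a background of 0%, with and without the replicate block, and without the arrays numbered 1 0 members were called against 0.674%. In the fit to all arrays 5 had an unadjusted p under 0.05, against a background of 2.85%. The number was also 5 without the arrays numbered 1, namely BZIP53, WRKY41, WRKY42, bHLH34 and BZIP60, against a background of 11.2%. BZIP34 had levels of 5.81, 6.05 and 5.94 in mock at 3 h, against 6.81, 6.24 and 6.10 in mock at 15 min (change -0.45, SE 0.18). The groups did not overlap, and mock 15 min array 1 was the high one, so that without the arrays numbered 1 the change was -0.17 (SE 0.10). BZIP53 had 7.62, 7.76 and 7.86 in mock at 3 h, all below the 8.06, 8.20 and 8.05 at 15 min (change -0.36, SE 0.15, adjusted p 0.999), and its change was -0.31 (SE 0.10, adjusted p 0.29) without the arrays numbered 1. With array weights its adjusted p was 0.034, in a setting in which 2.62% of rows were called.

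The other 3 of the fit to all arrays were WRKY genes. WRKY41 averaged 2.98 ± 0.13 in mock at 3 h and 3.42 ± 0.29 at 15 min (SD, n = 3 each; change -0.44, SE 0.17). WRKY42 had 3.85, 4.18 and 3.99 in mock at 3 h against 3.28, 3.78 and 3.81 at 15 min (change 0.38, SE 0.17). WRKY29 had a change of 0.67 (SE 0.27) between overlapping groups, with 7.81, 6.81 and 6.53 in mock at 3 h and 6.51, 6.56 and 6.09 at 15 min, and one of 0.35 (SE 0.16) without the arrays numbered 1. The mock 3 h arrays of WRKY29 and BZIP34 are also those used in the IAA comparison at 3 h, so the changes are not independent. The groups did not overlap in 5 members lower at 3 h, against a background of 7.1%, and in 3 higher, against 3.99%. The WRKY median was 0.38 with all arrays and 0.05 without the arrays numbered 1, and the bZIP and bHLH medians were -0.01 and 0.02.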

How the data were processed

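The authors deposited log2 expression values of 12 arrays (Affymetrix Gene 1.1 ST strips, biotin label, 100 ng of RNA each) made with oligo and RMA per the submitters' processing notes, without versions. Neither build nor annotation version is given in the sources used here, and coordinates are left out. Values were used as deposited. The platform annotation paired 16746 of 28583 rows with 1 gene, 758 with several and 11079 with none. Symbols were updated through the RefSeq table by gene number, which matched all 31 members, and the platform's own symbols gave the same 31.

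Tests used limma 3.58.1 under R 4.3.3, with lmFit, contrasts.fit and eBayes run on a model of the 4 group means, no filter on dim rows and Benjamini-Hochberg adjustment over the 17504 named rows. Residual degrees of freedom were 8. The test was tried on simulated data with independent errors and no arrays that stood apart. It therefore does not show how the test behaves with the arrays numbered 1. Python 3.11.15, pandas 2.3.3 and matplotlib 3.10.9 served for tables and figures. The number of arrays limits the precision. Whether the repeats came from separate seed lots or growth batches is not given in the labels. The p-values set each change against the spread between these samples, without the replicate number unless the block is named. With the block the 15 min SE of WRKY6 was 0.40 against 0.65 without it, while that of BZIP34 was 0.18 in both.

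Same-numbered arrays of IAA and mock deviated together at 15 min (correlations of deviations 0.781, 0.65 and 0.639) and only weakly at 3 h (0.127, 0.117 and 0.172). The 3 deviations of a group sum to 0, so the correlations for numbers 2 and 3 partly repeat that for number 1. A pairing of samples by number and the differing arrays numbered 1 therefore cannot be told apart here. The fit with the replicate block changed no member's call. At most 7 values were identical between arrays of a group. The genes named were, for each family, the 3 highest and 2 lowest in level, those called with or without the block, the 2 with the smallest p and the 2 with the largest change in each comparison, and measured members of 9 role lists, 24 in all. The remaining 7 members are named for completeness. The members and lists were chosen with earlier results of these data known. The 9 lists were auxin response, S1 and C bZIP, glucosinolate MYB, flavonoid MYB, secondary wall, suberin MYB, iron bHLH, defence WRKY and stress NAC factors.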

Additional observations from a re-analysis of the deposited data

How the results depend on the processing

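No member was called in the fit described above, and 92 of 96 recomputed counts of called members were also 0, the fit with the replicate block among them (0 members in each of the 4 comparisons). The exceptions were 1 member at 15 min with array weights (BZIP34, log2 change 0.83, adjusted p 0.00104), 1 member at 15 min without the arrays numbered 1 (BZIP34, 0.88, adjusted p 0.0351), 2 members at 3 h with array weights (BZIP34, 0.53, adjusted p 0.00766, and BZIP61, 0.46, adjusted p 0.0413) and 1 member between the mock times with array weights (BZIP53, -0.38, adjusted p 0.034). With array weights 0.24% of all rows were called at 15 min, 3.12% at 3 h and 2.62% between the mock times. Without the arrays numbered 1, 0.0628% were called at 15 min. Leaving out 1 array at a time gave 0 to 0 members in each comparison, and leaving out the arrays of 1 number gave 0 to 1 at 15 min and 0 elsewhere. Few rows were called in many settings. The fit to all arrays called 0 of 17504 rows at 15 min and between the mock times. Without the arrays numbered 2 it was 0 in every comparison, so the members' counts of 0 were fixed there. The alternatives were the block, quantile normalization alone and with the block (the last chosen after seeing the data), all rows or rows with 1 gene, rows above the median level, a variance trend, array weights, arrays left out and the platform's symbols. Of the recomputed family medians, 363 moved by less than the spread between replicates and 5, all of them WRKY, by more. Among these were the medians from rows above the median level, -0.60 at 3 h and -0.44 for the difference between the times. Only 21 of the 31 members were tested in that setting, so the set of genes differed too. Of the members' recomputed changes, 2132 were classed as the same, 43 as moved and 5 as stronger. No member's change passed the test in the opposite direction. Dim members, near the 25th percentile or below it, have levels limited by background.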

Other observations

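Members of the same families under another symbol, and WRKY probe sets shared by several genes, were set beside the named ones. These 14 rows had log2 changes between -0.26 and 0.13 after 15 min of IAA and between -0.37 and 0.51 after 3 h, with 0 called by limma and 0 with the replicate block. EEL, a bZIP factor of seed development, had the largest change at 3 h among them (0.51, unadjusted limma p 0.0106), with a mean level of 4.66 in IAA and 4.15 in mock. ILR3, the bHLH factor that acts with bHLH34, bHLH104 and bHLH115 in iron supply and was first found in a screen with a conjugated auxin, had changes of -0.03 at 15 min and -0.04 at 3 h. The 2 probe sets shared by WRKY53 and 3xHMG-box2 had changes of 0.30 and -0.27 at 3 h, in opposite directions.

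In 3 members, BZIP17, WRKY47 and bHLH104, the 3 same-numbered IAA minus mock differences were all negative at 3 h and all positive at 15 min. The share of all rows with this pattern was not counted. For bHLH104 the differences were -0.23, -0.09 and -0.11 at 3 h and 0.17, 0.12 and 0.10 at 15 min. For WRKY47 they were -1.62, -0.16 and -0.002 at 3 h, with the largest in size on the arrays numbered 1. The test of the difference between the times did not pass for any of them (bHLH104 -0.27, SE 0.22, WRKY47 -0.79, SE 0.54, BZIP17 -0.18, SE 0.18, each with a limma adjusted p of 0.999), and these 3 were chosen with their values known.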
